A study of Homo sapiens with 24 samples.

Results

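The 10 genes described here encode core members of the 2 Polycomb repressive complexes and of the MLL-menin machinery: EZH1, EZH2, SUZ12 and EED, BMI1 and RING1, and KMT2A, MEN1, DOT1L and PSIP1. They were taken by gene symbol from the expression tables of both cell lines of the study. All 10 were found among the 35587 symbols of each table, and all 10 passed the filter on low values in both lines. The study treated OCI-AML2 and MOLM14, both human acute myeloid leukaemia cell lines, with ARM165, AZ2 or DMSO, the solvent control, for 24 h and sequenced poly(A) RNA. Each line and treatment has 4 libraries, which makes 24 in all. The series title names PI3K gamma and AKT signalling and a heterobifunctional degrader. The labels say neither which of ARM165 and AZ2 that is, nor the doses, nor whether the 4 libraries of a group came from separate cultures, so p-values measure a spread between libraries that may be technical. Because the tables of the lines carry separate scalings, levels are given within a line only.

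Polycomb repressive complex 2 (PRC2) places methyl groups on a lysine of histone H3 and so marks genes for repression. Its catalytic subunit is either EZH2 or the related EZH1, and SUZ12 and EED are the partners that the enzyme needs to be active. EZH2 is the form known from dividing cells, and EZH1 is better known from resting ones. Polycomb repressive complex 1 (PRC1) attaches ubiquitin to histone H2A through the ligase RING1 or its paralogue RNF2, which pairs with BMI1 or a related PCGF protein. On the opposing side, KMT2A (MLL) methylates histone H3 at active genes, and menin, the product of MEN1, tethers it to chromatin together with PSIP1 (LEDGF). DOT1L methylates histone H3 within the nucleosome core at transcribed genes and is recruited by MLL fusion proteins. In leukaemias with a rearranged KMT2A gene, fusion proteins bound to menin maintain HOXA9 and MEIS1. MOLM14 is known to carry a fusion of KMT2A to MLLT3. Values per gene symbol cannot separate a normal from a fused KMT2A transcript in either line. The state of KMT2A in OCI-AML2 was not examined, so differences between the lines are not read as fused against unfused.

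Values are normalized estimated reads per gene symbol, with 4 libraries per group throughout and SD as the error of a mean. Changes are log2 fold changes on the log2(value + 1) scale with their standard error, from limma fitted over all genes of a line, and a gene was called at a Benjamini-Hochberg adjusted p under 0.05 over all genes tested. Reads per library, estimated from the value that stands for 1 read, ranged from 35444338 to 58967823. ARM165 moved most of the transcriptome, with 10125 of 15377 genes called against DMSO in OCI-AML2 and 10623 of 15288 in MOLM14, and with a median size of change over all genes of 0.66 and 0.63. AZ2 against DMSO gave 17 and 0 calls, while 733 and 899 genes had an unadjusted p under 0.05. The summed level of 9 myeloid markers was 51734 to 53376 with ARM165 and 95473 to 103112 with DMSO in OCI-AML2. In MOLM14 it was 42650.1 to 49687 with ARM165 and 79181 to 83246 with DMSO. Some averaged higher with ARM165 than with DMSO. In OCI-AML2 these were CD14 (126 against 67.8) and ITGAM (13.5 against 10.6). In MOLM14 they were SPI1 (7877 against 6248), ITGAM (168 against 132) and CSF1R (142 against 121). The other myeloid markers averaged lower with ARM165 in each line. The part of the myeloid markers in the results was not tested. Of 4 T and NK cell markers, 1 averaged at least 10, NKG7, and the list summed to 482 to 660.3 with ARM165 and 751 to 903 with DMSO in OCI-AML2, and to 359 to 457 with ARM165 and 488 to 547 with DMSO in MOLM14, with CD3D, CD3E and CD2 at most 12.7 in any library. Of 4 B cell markers, 1 averaged at least 10 with ARM165 and 2 with DMSO in OCI-AML2, where the list summed to 17.5 to 40.7 with ARM165 and 48.1 to 70.4 with DMSO. In MOLM14 2 did with ARM165 and 3 with DMSO, and the sums were 312 to 393 with ARM165 and 551 to 668 with DMSO, mostly from PAX5, while MS4A1 was at most 3.61. The part of these markers in the results was not tested. Erythroid and megakaryocyte markers summed to at most 58.2 and epithelial and fibroblast markers to at most 82.3 in any library. In bulk RNA, a change of RNA per cell cannot be told apart from a change in which cells remain.

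With ARM165, all 10 genes were called in OCI-AML2 and 5 of 10 in MOLM14, and every call in MOLM14 had the same direction in OCI-AML2. In OCI-AML2, 5 rose (EZH1, BMI1, RING1, KMT2A and DOT1L) and 5 fell (EZH2, SUZ12, EED, MEN1 and PSIP1). The background was 65.8% of all genes called in either direction, 34.2% higher and 31.6% lower. In MOLM14, 2 rose (EZH1 and BMI1) and 3 fell (EZH2, EED and MEN1). The background there was 69.5% of all genes called, 35.5% higher and 34% lower. With equal library totals 9 of the 10 were called in MOLM14, 7 higher and 2 lower. That background was 70.7% of all genes, 43.6% higher and 27.1% lower. The 4 ARM165 and 4 DMSO libraries did not overlap for 9 of 10 genes in OCI-AML2 and for 5 of 10 in MOLM14, where 60.5% and 63.8% of all genes did not overlap. With the deposited scaling the count called in MOLM14 lies below the share of all genes, and with equal library totals above it. This count therefore does not set the members apart from other genes as a set. Their median size of change was 0.61 in OCI-AML2, beside 0.66 for all genes, and 0.26 in MOLM14, beside 0.63.

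**Figure D1:**
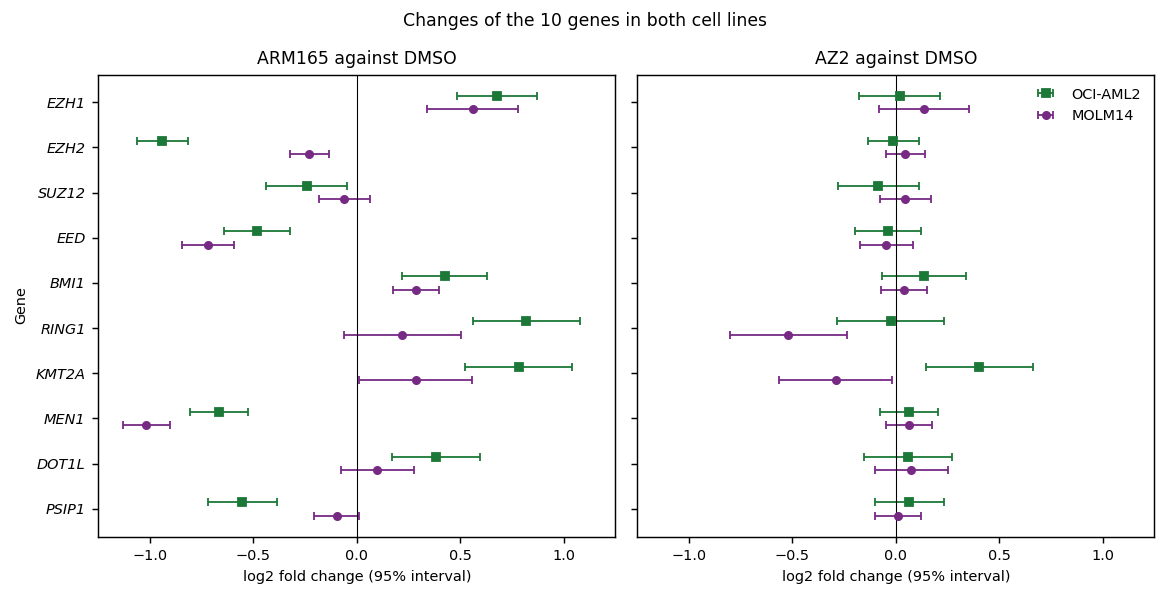
Changes of the 10 genes against DMSO in OCI-AML2 (squares) and MOLM14 (circles), as log2 fold changes with 95% intervals on the horizontal axis, with ARM165 on the left and AZ2 on the right. With ARM165 the changes run from -0.94 for EZH2 to 0.82 for RING1 in OCI-AML2, while with AZ2 no gene was called in either line.

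EZH2, the main PRC2 methyltransferase of dividing cells, fell with ARM165 in both lines. Its OCI-AML2 values were 3220.3, 3181, 3154 and 3623 with ARM165, against 6607, 6659, 6217 and 5832 with DMSO. In MOLM14 they were 5441, 5974, 5818 and 6043 with ARM165, against 6702, 6730.2, 7061 and 6778 with DMSO. In each line every ARM165 library lay below every DMSO library, with a wide gap in OCI-AML2 and a narrow one in MOLM14. The change was -0.94 ± 0.058 (adjusted p = 8.74e-10) in OCI-AML2 and -0.23 ± 0.044 (adjusted p = 2.60e-04) in MOLM14. With the MOLM14 libraries set to equal totals, which moved the median change of all genes to 0.22, EZH2 was at -0.038 there and was no longer called (adjusted p = 0.404 by limma).

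EZH1, the alternative catalytic subunit, moved the other way. With ARM165 its values were 1191, 1084, 1137 and 969 in OCI-AML2, against 672, 671, 619 and 777 with DMSO. In MOLM14 the ARM165 libraries had 630.3, 585, 541 and 436 and the DMSO libraries 342, 372, 385 and 374. All ARM165 libraries were above all DMSO libraries in both lines, and replicate 4 was the lowest of the ARM165 libraries in each. The change was 0.68 ± 0.091 (adjusted p = 7.71e-06) in OCI-AML2 and 0.56 ± 0.10 (adjusted p = 1.62e-04) in MOLM14.

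The balance between both enzymes was followed as log2(EZH1 + 1) minus log2(EZH2 + 1) within each library, a measure that a scaling factor cannot move. In OCI-AML2 it was -1.59 ± 0.21 with ARM165 and -3.21 ± 0.20 with DMSO (SD, n = 4), a difference of 1.62. In MOLM14 it was -3.42 ± 0.28 with ARM165 and -4.21 ± 0.053 with DMSO, a difference of 0.79. The groups did not overlap in either line, and the exact two-sided permutation test gave p = 0.0286 in each, the smallest that 4 against 4 libraries allow. With AZ2 the difference from DMSO was 0.029 in OCI-AML2 (exact permutation p = 0.771) and 0.091 in MOLM14 (exact permutation p = 0.0857), and neither passed.

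**Figure D2:**
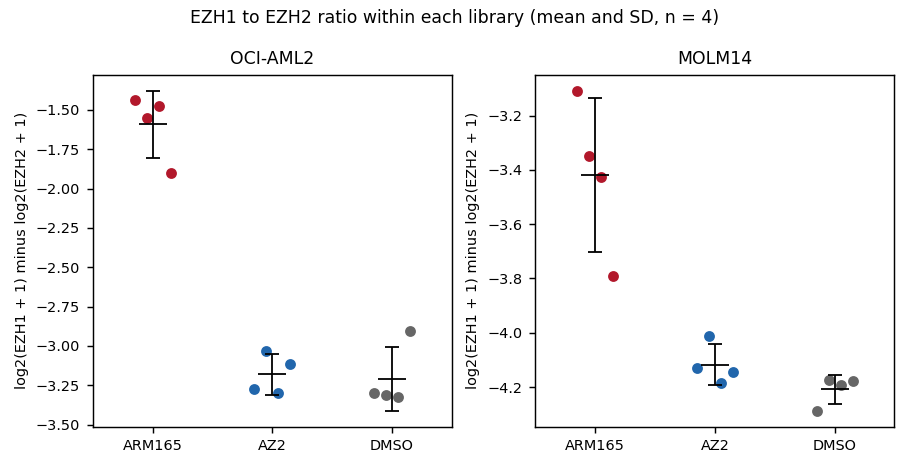
The difference log2(EZH1 + 1) minus log2(EZH2 + 1) in each library (points), with the mean and SD of the 4 libraries of a treatment, for OCI-AML2 on the left and MOLM14 on the right; the vertical axes differ between the lines. The ARM165 libraries stand above those of AZ2 and DMSO in both lines, by 1.62 over DMSO in OCI-AML2 and 0.79 in MOLM14.

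Promoter windows of 9 of the 10 genes were read from RefSeq (GRCh38.p14), each from 250 bases before to 50 bases after the gene's start. They are shown for EZH2 and EZH1, whose RNAs moved in opposite directions, and for SUZ12, because each of these windows holds a match to an E2F word, the motif of the factors that drive genes of DNA replication. Capitals mark an E2F word, here TTTCCCGC, TTTCGCGC, TTTGCCGC or TTTGGCGC on either strand, or the FOXO word TGTTTAC on either strand. The windows lie at chr7:148884242-148884541 (minus strand) for EZH2, chr17:42744991-42745290 (minus strand) for EZH1 and chr17:31936757-31937056 (plus strand) for SUZ12.
EZH2: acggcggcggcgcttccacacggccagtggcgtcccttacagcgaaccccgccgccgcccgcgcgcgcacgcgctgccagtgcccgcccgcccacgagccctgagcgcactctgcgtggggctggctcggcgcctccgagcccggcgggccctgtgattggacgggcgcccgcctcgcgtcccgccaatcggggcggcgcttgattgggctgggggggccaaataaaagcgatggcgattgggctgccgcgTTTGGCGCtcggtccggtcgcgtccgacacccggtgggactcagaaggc
EZH1: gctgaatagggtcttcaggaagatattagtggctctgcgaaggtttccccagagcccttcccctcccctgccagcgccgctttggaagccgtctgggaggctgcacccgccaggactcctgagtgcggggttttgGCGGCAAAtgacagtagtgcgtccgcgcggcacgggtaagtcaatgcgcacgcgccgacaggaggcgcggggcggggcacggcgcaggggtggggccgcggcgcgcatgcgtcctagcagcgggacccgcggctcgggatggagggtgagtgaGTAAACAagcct
SUZ12: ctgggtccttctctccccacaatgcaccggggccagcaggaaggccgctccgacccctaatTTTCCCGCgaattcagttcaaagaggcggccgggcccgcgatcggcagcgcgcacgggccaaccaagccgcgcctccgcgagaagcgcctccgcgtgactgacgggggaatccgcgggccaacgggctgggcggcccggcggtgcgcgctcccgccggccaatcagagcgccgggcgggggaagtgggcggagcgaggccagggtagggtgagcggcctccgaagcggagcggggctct
The EZH2 match is TTTGGCGC at bases 252 to 259 of its window, directly after the start. In EZH1 the word TTTGCCGC was found on the opposite strand at bases 136 to 143, and SUZ12 holds TTTCCCGC at bases 62 to 69. The table holds 13 windows for the 9 genes, with a second start for EZH2, BMI1, MEN1 and PSIP1, and the second EZH2 window, at chr7:148883436-148883735 (minus strand), holds no match. An E2F word was in 3 of 13 windows, beside 3.315% of all 35116 windows, and in at least 1 window of 3 of 9 genes, beside 3.992% of all 27305 genes with a window and 10 of 14 genes of a replication list. A FOXO word was in 2 of 13 windows, that of EZH1 at bases 289 to 295 and 1 of the 2 of PSIP1 at bases 196 to 202, beside 3.423% of all windows. An E2F word was found for EZH2, which fell in both lines, EZH1, which rose in both, and SUZ12, called in OCI-AML2 alone. The part of the word in these changes was not tested. A match describes letters, not a site in use.

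EED, the subunit that reads the methyl mark, also fell. Its values with ARM165 were 1300.00, 1195, 1103 and 1363 in OCI-AML2, against 1784, 1843, 1585 and 1700.04 with DMSO. In MOLM14 they were 1259.8, 1293, 1318 and 1434 with ARM165, against 2217, 2068, 2208 and 2239 with DMSO. The groups did not overlap in either line, and the MOLM14 groups were furthest apart. The change was -0.48 ± 0.075 (adjusted p = 3.44e-05) in OCI-AML2 and -0.72 ± 0.059 (adjusted p = 2.65e-08) in MOLM14.

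SUZ12, the scaffold of the complex, had the smallest changes of the PRC2 core genes. In OCI-AML2 it had 4826, 4229.6, 4626 and 5320.5 with ARM165, against 5364, 6509, 4925 and 5719.7 with DMSO, and the groups overlapped. In MOLM14 it had 7362, 7039.8, 6893 and 8123 with ARM165, against 7308, 7665, 7667 and 8011 with DMSO, again with overlap. The OCI-AML2 change of -0.24 ± 0.091 (adjusted p = 0.0294) was called but lost the call in 7 of 20 alternatives, among them without DMSO replicate 2, where it was -0.17 (adjusted p = 0.103). The MOLM14 change of -0.061 ± 0.058 (adjusted p = 0.360) was not called and turned to 0.13 with equal library totals, where it was called (adjusted p = 0.0374). SUZ12 shares 9.16% of its 31-base stretches with the pseudogene SUZ12P1, which averaged 1008 ± 60.2 with ARM165 and 1814 ± 25.8 with DMSO in OCI-AML2. Summed with it, the OCI-AML2 change was -0.37 ± 0.074 (adjusted p = 3.73e-04).

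**Figure D3:**
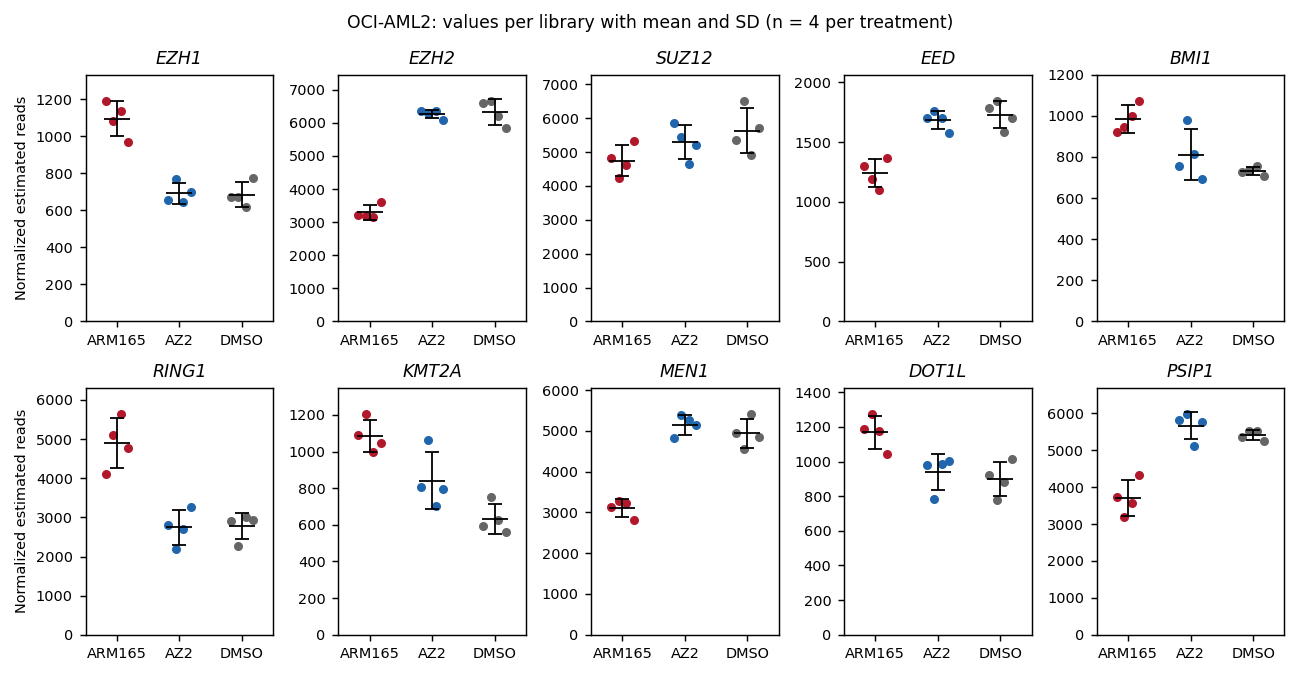
Normalized estimated reads of the 10 genes in each OCI-AML2 library (points) with ARM165, AZ2 and DMSO, with the mean and SD of 4 libraries; each panel starts at 0. EZH2 lies at 3154 to 3623 with ARM165 and at 5832 to 6659 with DMSO, and for all genes except SUZ12 the ARM165 and DMSO libraries do not overlap.

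The other PRC2 subunits split between rises and falls. Of 9 accessory genes, 4 rose, 4 fell and 1 was not called in OCI-AML2 (median change -0.059, all genes 0.034). In MOLM14 3 rose, 4 fell and 2 were not called (median 0.13, all genes 0.031). Of all genes, 34.2% were called higher and 31.6% lower in OCI-AML2, and 35.5% higher and 34% lower in MOLM14. With equal library totals the MOLM14 shares were 43.6% and 27.1%, and the median of all genes was 0.22. This list and those below were counted with the deposited scaling only. RBBP4 and RBBP7 encode histone-binding proteins that serve other complexes too. RBBP4 fell to 2564 ± 215 with ARM165 against 4642 ± 365 with DMSO in OCI-AML2, and its change was -0.86 ± 0.080 (adjusted p = 1.29e-07) there and -1.28 ± 0.061 (adjusted p = 4.97e-11) in MOLM14. RBBP7 was at -0.96 ± 0.078 (adjusted p = 2.22e-08) in OCI-AML2 and -1.16 ± 0.050 (adjusted p = 1.45e-11) in MOLM14. PHF19, which guides PRC2 to chromatin, fell by 0.88 on the log2 scale in OCI-AML2 and by 0.47 in MOLM14. EPOP, an accessory factor linked to elongin, fell to 314 ± 53.7 with ARM165 against 1542 ± 48.4 with DMSO in MOLM14 (-2.30 ± 0.095, adjusted p = 9.55e-12). In OCI-AML2, where it was low, it had 1.69 to 8.63 with ARM165 and 25.6 to 64.8 with DMSO (-3.01 ± 0.45, adjusted p = 2.60e-05). JARID2, which helps recruit the complex, rose to 13498 ± 436 with ARM165 against 4521 ± 337 with DMSO in OCI-AML2 (1.58 ± 0.056, adjusted p = 2.00e-12), and its MOLM14 change was 0.18 ± 0.038 (adjusted p = 6.10e-04). LCOR, whose locus also encodes the PRC2 partner PALI1, rose by 1.21 in OCI-AML2 and by 1.19 in MOLM14. PHF1 was at 1.52 ± 0.21 (adjusted p = 8.14e-06) in OCI-AML2, and its 0.45 ± 0.25 (adjusted p = 0.120) in MOLM14 was not called. AEBP2 was at 0.66 ± 0.099 (adjusted p = 2.42e-05) in OCI-AML2 and 0.36 ± 0.051 (adjusted p = 1.30e-05) in MOLM14.

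Both PRC1 members rose with ARM165 in OCI-AML2, and BMI1 also rose in MOLM14. BMI1, the partner that raises the ligase's activity, had 919.7, 947, 998 and 1072 with ARM165, against 726, 739, 755 and 709.6 with DMSO in OCI-AML2. Its MOLM14 values were 7283, 7516, 7371 and 8465 with ARM165, against 6019, 6465, 5945 and 6660.5 with DMSO. The groups did not overlap in either line, and the change was 0.42 ± 0.096 (adjusted p = 0.00104) in OCI-AML2 and 0.29 ± 0.052 (adjusted p = 1.59e-04) in MOLM14. BMI1 shares 22.1% of its 31-base stretches with the read-through gene COMMD3-BMI1, which averaged 3243 ± 421 with ARM165 and 2195 ± 819 with DMSO in MOLM14. Their sum changed by 0.46 ± 0.086 (adjusted p = 2.16e-04) in OCI-AML2 and by 0.36 ± 0.055 (adjusted p = 2.49e-05) in MOLM14.

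RING1, a ubiquitin ligase of the complex, had 4120.4, 5109, 5635 and 4761 with ARM165, against 2914, 2276, 3005 and 2924 with DMSO in OCI-AML2. Every ARM165 library was far above every DMSO library there, and DMSO replicate 2 was the lowest. In MOLM14 it had 1487, 1402, 1853 and 1793 with ARM165, against 1552, 1154, 1429 and 1474 with DMSO, and the groups overlapped. The change was 0.82 ± 0.12 (adjusted p = 2.10e-05) in OCI-AML2, and the 0.22 ± 0.13 (adjusted p = 0.155) of MOLM14 was not called. With equal library totals the MOLM14 change of RING1 was 0.41 and was called (adjusted p = 0.0131 by limma). The median change of all genes was then 0.22.

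Among the other PRC1 subunits, 13 of 23 tested rose, 8 fell and 2 were not called in OCI-AML2 (median 0.47). Of all genes there, 34.2% were called higher and 31.6% lower. In MOLM14, 9 of 24 rose, 8 fell and 7 were not called (median 0.13), beside 35.5% higher and 34% lower of all genes. RNF2, the paralogue of RING1, rose to 4026 ± 334 with ARM165 against 1033 ± 60.7 with DMSO in OCI-AML2 (1.96 ± 0.077, adjusted p = 5.68e-12), and by 0.57 ± 0.047 (adjusted p = 2.63e-08) in MOLM14. RYBP, a subunit of variant PRC1, rose by 1.67 ± 0.092 (adjusted p = 2.78e-10) in OCI-AML2 and by 1.28 ± 0.064 (adjusted p = 8.30e-11) in MOLM14. BCOR, another variant PRC1 subunit, rose by 1.05 in OCI-AML2 and by 0.82 in MOLM14. CBX2, a reader of the PRC2 mark, fell to 66.2 ± 6.50 with ARM165 against 236 ± 17.4 with DMSO in OCI-AML2 (-1.82 ± 0.13, adjusted p = 5.31e-09), and its MOLM14 change was -1.84 ± 0.11 (adjusted p = 3.75e-10). SCML2, which associates with PRC1, fell by 0.98 on the log2 scale in OCI-AML2 and dropped by 1.24 in MOLM14.

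Enzymes that remove the Polycomb marks and the ASXL cofactors of one of them, 8 genes in all, included large rises. Of these, 5 of 7 tested rose and 1 fell in OCI-AML2 (median 0.75), beside 34.2% and 31.6% of all genes. In MOLM14, 4 of 7 rose and 2 fell (median 0.53), beside 35.5% and 34% of all genes. This leaves out ASXL3, which reached the filter there through its ARM165 libraries alone and is not read further. KDM6B, a demethylase of the PRC2 mark, averaged 3047 ± 199 with ARM165 and 439 ± 117 with DMSO in OCI-AML2 (2.84 ± 0.17, adjusted p = 4.94e-10). In MOLM14 it averaged 1794 ± 132 with ARM165 and 399 ± 105 with DMSO (2.21 ± 0.18, adjusted p = 2.59e-08). KDM6A, a related demethylase, rose to 7909.7 ± 524 with ARM165 against 3066 ± 341 with DMSO in OCI-AML2 (1.37 ± 0.091, adjusted p = 2.23e-09), and by 1.62 ± 0.092 (adjusted p = 3.59e-10) in MOLM14. BAP1, which removes ubiquitin from histone H2A, fell by 0.29 on the log2 scale in OCI-AML2 and by 0.38 in MOLM14. Its cofactor ASXL1 was at -0.12 ± 0.076 (adjusted p = 0.173) in OCI-AML2, where it was not called, and fell by 0.46 ± 0.096 (adjusted p = 5.31e-04) in MOLM14.

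On the MLL-menin side, MEN1 fell furthest. In OCI-AML2 its values were 3126, 3287, 3224 and 2804 with ARM165, against 4952, 4551, 5406 and 4842 with DMSO. In MOLM14 they were 1816, 1697, 1817 and 1562 with ARM165, against 3439.7, 3611, 3409 and 3478 with DMSO. All ARM165 libraries lay well below all DMSO libraries in both lines, and the gap was wider in MOLM14. The change was -0.67 ± 0.065 (adjusted p = 2.09e-07) in OCI-AML2 and -1.02 ± 0.053 (adjusted p = 1.19e-10) in MOLM14, and the call held under all 20 alternatives in each line.

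KMT2A, the methyltransferase that menin tethers, rose in OCI-AML2, where it had 1092, 1204, 999 and 1045 with ARM165, against 592, 751, 626 and 561 with DMSO. In MOLM14 it had 1169, 1245, 1221 and 1391 with ARM165, against 814, 927, 1102 and 1352 with DMSO. The OCI-AML2 groups did not overlap, while MOLM14 DMSO replicate 4 was above 3 of the 4 ARM165 libraries. The change was 0.78 ± 0.12 (adjusted p = 3.18e-05) in OCI-AML2. In MOLM14 it was 0.28 ± 0.13 (adjusted p = 0.0600), not called, and 0.42 without DMSO replicate 4 (adjusted p = 0.00363). With equal library totals it was 0.48 there and was called (adjusted p = 0.00337 by limma), where the median of all genes was 0.22. KMT2A shares 17.4% of its 31-base stretches with the gene AP001267.5, which averaged 263 ± 60.1 with ARM165 and 421 ± 80.3 with DMSO in OCI-AML2. Summed with it, the KMT2A change shrank to 0.36 ± 0.12 (adjusted p = 0.0180) in OCI-AML2 and to 0.11 ± 0.11 (adjusted p = 0.402) in MOLM14.

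DOT1L, the nucleosome-core methyltransferase, had 1188, 1273, 1178 and 1042 with ARM165, against 922, 780.2, 883 and 1013 with DMSO in OCI-AML2. In MOLM14 it had 1039, 972, 1124 and 922 with ARM165, against 867, 923, 955 and 1039.8 with DMSO. The groups were just apart in OCI-AML2 and overlapped in MOLM14. Its change was 0.38 ± 0.10 (adjusted p = 0.00324) in OCI-AML2, and the 0.099 ± 0.083 (adjusted p = 0.304) of MOLM14 was not called. With equal library totals the MOLM14 change of DOT1L was 0.29 and was called (adjusted p = 0.00891 by limma). The median change of all genes was then 0.22.

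PSIP1, the chromatin tether that works with menin, had 3735, 3189, 3574 and 4341 with ARM165, against 5350.2, 5535, 5509.9 and 5265 with DMSO in OCI-AML2. In MOLM14 it had 5618, 5685, 5591 and 6597 with ARM165, against 6252, 6114, 6438 and 6283 with DMSO. In OCI-AML2 every ARM165 library was lower, while in MOLM14 ARM165 replicate 4 stood above all DMSO libraries and the other 3 below them. The change was -0.55 ± 0.078 (adjusted p = 1.25e-05) in OCI-AML2. In MOLM14 it was -0.098 ± 0.052 (adjusted p = 0.104), not called, but -0.16 without ARM165 replicate 4 (adjusted p = 0.00189), and it turned to 0.093 with equal library totals, where it was called (adjusted p = 0.0256).

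**Figure D4:**
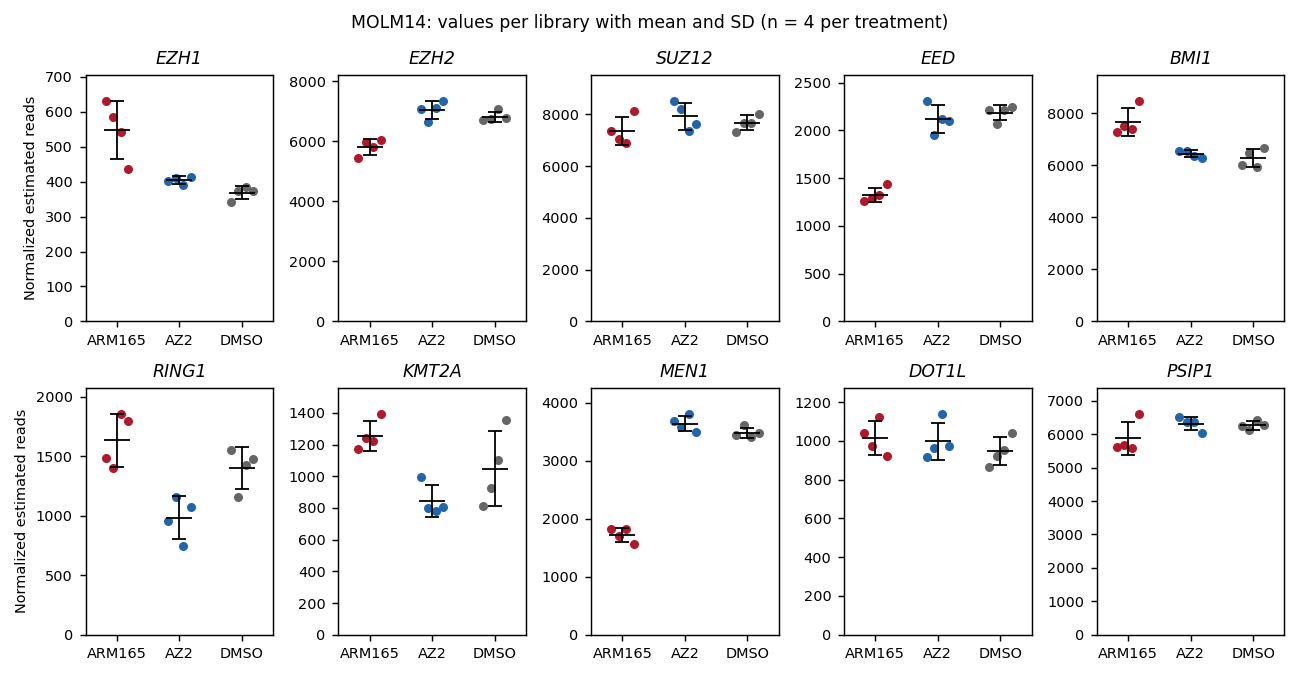
Normalized estimated reads of the 10 genes in each MOLM14 library (points) with ARM165, AZ2 and DMSO, with the mean and SD of 4 libraries; each panel starts at 0. MEN1 lies at 1562 to 1817 with ARM165 and at 3409 to 3611 with DMSO, while KMT2A has a wide DMSO group of 814 to 1352.

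The partners of KMT2A in its own and related complexes moved in both directions. In OCI-AML2, 6 of 14 genes rose, 5 fell and 3 were not called (median 0.080, all genes 0.034). In MOLM14, 5 rose, 6 fell and 3 were not called (median -0.14, all genes 0.031). The shares of all genes called were 34.2% higher and 31.6% lower in OCI-AML2, and 35.5% higher and 34% lower in MOLM14. WDR5, a core subunit of all these complexes, fell to 774 ± 23.4 with ARM165 against 1807 ± 37.9 with DMSO in OCI-AML2 (-1.22 ± 0.057, adjusted p = 3.82e-11), and its MOLM14 change was -1.18 ± 0.054 (adjusted p = 3.20e-11). KMT2C, an enhancer methyltransferase of the family, rose by 0.75 ± 0.099 (adjusted p = 6.36e-06) in OCI-AML2 and by 1.49 ± 0.11 (adjusted p = 4.56e-09) in MOLM14. KMT2B, the closest relative of KMT2A, rose by 0.81 in OCI-AML2 and by 0.33 in MOLM14. NCOA6, a coactivator subunit, rose by 1.08 in OCI-AML2 and by 0.89 in MOLM14. CXXC1, a subunit of the SET1 complexes, fell by 0.59 on the log2 scale in OCI-AML2 and by 0.55 in MOLM14. PAXIP1, a subunit shared by KMT2C and KMT2D, fell by 0.26 in OCI-AML2 and by 0.68 in MOLM14.

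Genes of MLL fusion partners and of the super elongation complex, which releases paused polymerase, gave 6 rises, 6 falls and 1 gene not called of 13 in OCI-AML2 (median -0.010). In that line 34.2% of all genes were called higher and 31.6% lower. All 13 were called in MOLM14, with 9 rises and 4 falls (median 0.43). Of all genes there, 69.5% were called, 35.5% higher and 34% lower. The scaffolds AFF4 and AFF1 went opposite ways. AFF4 rose to 591 ± 29.1 with ARM165 against 147 ± 20.3 with DMSO in OCI-AML2 (2.01 ± 0.14, adjusted p = 4.70e-09), and by 1.70 ± 0.096 (adjusted p = 3.14e-10) in MOLM14. AFF1 was at -1.18 ± 0.086 (adjusted p = 6.75e-09) in OCI-AML2 and -0.92 ± 0.053 (adjusted p = 3.66e-10) in MOLM14. ELL2, an elongation factor, rose by 2.29 ± 0.22 (adjusted p = 1.79e-07) in OCI-AML2 and by 3.39 ± 0.31 (adjusted p = 1.02e-07) in MOLM14. EAF2, its cofactor, fell by 1.63 on the log2 scale in OCI-AML2 and was at 0.19 ± 0.070 (adjusted p = 0.0246) in MOLM14. MLLT1, which encodes ENL, fell by 0.66 on the log2 scale in OCI-AML2 and by 0.69 in MOLM14. MLLT3, the partner fused to KMT2A in MOLM14, fell by 0.71 on the log2 scale in OCI-AML2 and rose by 0.51 in MOLM14, where reads of the fusion transcript cannot be told apart from those of MLLT3.

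Genes known to depend on MLL fusions and menin in leukaemia split between rises and falls. In OCI-AML2, 6 of 15 rose, 4 fell and 5 were not called (median 0.18), beside 34.2% of all genes called higher and 31.6% lower. In MOLM14, 11 rose and 4 fell (median 0.60), beside 35.5% and 34% of all genes. With equal library totals the median of all genes in MOLM14 was 0.22. HOXA9, a homeobox gene of the leukaemic program, rose to 4039 ± 419 with ARM165 against 2308 ± 79.0 with DMSO in OCI-AML2 (0.80 ± 0.069, adjusted p = 4.95e-08), and by 0.91 ± 0.055 (adjusted p = 6.60e-10) in MOLM14. MEIS1, its partner, rose by 0.80 ± 0.092 (adjusted p = 1.37e-06) in MOLM14, while its OCI-AML2 change of 0.087 ± 0.12 (adjusted p = 0.542) was not called. JMJD1C, of the histone demethylase family, rose by 2.38 in OCI-AML2 and by 1.04 in MOLM14. The transcription factor gene RUNX2 rose by 0.26 in OCI-AML2 and by 1.40 in MOLM14. MYB, a progenitor transcription factor, fell to 3354 ± 252 with ARM165 against 17629 ± 786 with DMSO in OCI-AML2 (-2.40 ± 0.055, adjusted p = 1.78e-14), and its MOLM14 change was -1.20 ± 0.050 (adjusted p = 1.22e-11). FLT3, a growth factor receptor gene that is also among the myeloid markers, fell by 1.64 on the log2 scale in OCI-AML2 and by 1.18 in MOLM14.

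Genes of DNA replication fell without exception, 16 of 16 in each line, with a median of -1.72 in OCI-AML2 and -1.44 in MOLM14. Of all genes, 31.6% were called lower in OCI-AML2 and 34% in MOLM14. FEN1 and GINS2 were among the lowest, at -2.16 and -2.10 in OCI-AML2 and at -1.97 and -2.00 in MOLM14. Beside them EZH2 was at -0.94 in OCI-AML2 and -0.23 in MOLM14, a smaller fall than that of any replication gene listed in the same line. The part of proliferation in the EZH2 result was not tested.

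**Figure D5:**
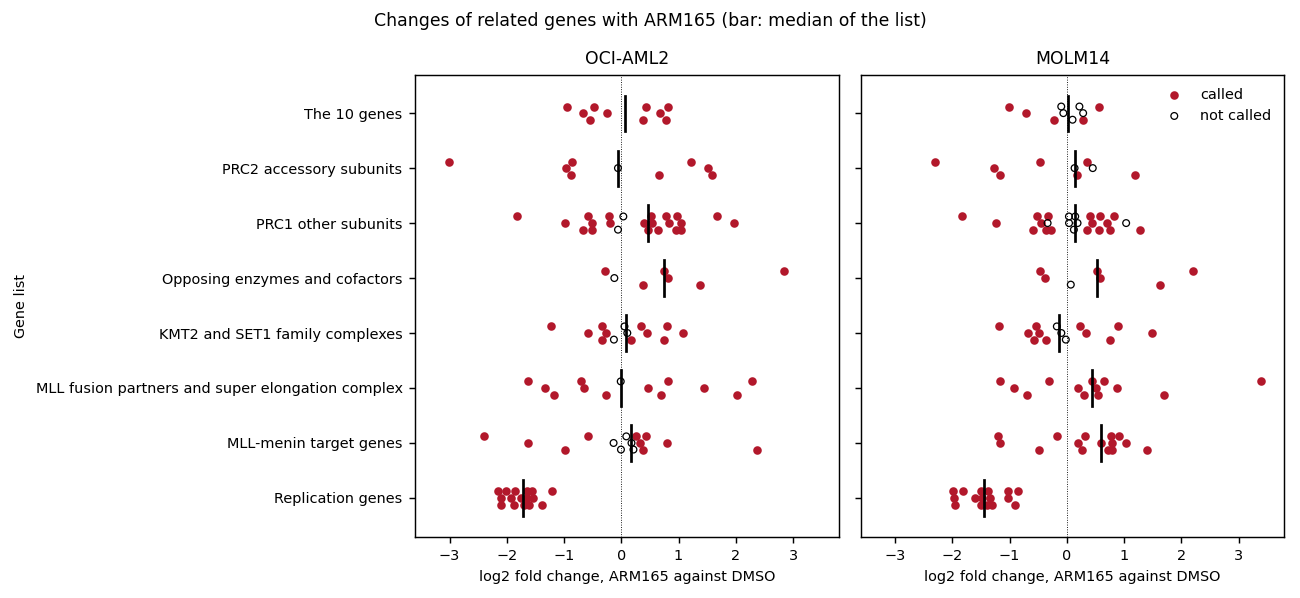
Log2 fold changes with ARM165 against DMSO for the 10 genes and for 7 lists of related genes (rows), in OCI-AML2 on the left and MOLM14 on the right, with filled points for called genes, open points for genes not called and a bar at the median of the list. Replication genes lie on the falling side with medians of -1.72 and -1.44, while each of the other lists holds both rises and falls. ASXL3 in MOLM14 is left out, since it reached the filter through its ARM165 libraries alone.

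The ARM165 response differed between the lines for 6 of 10 genes, with 4 higher and 2 lower in OCI-AML2 relative to MOLM14. Of all 14287 genes tested, 42.4% differed, 24.3% higher and 18.1% lower. EZH2 showed the largest difference, -0.71 ± 0.070 (adjusted p = 1.83e-08), with changes of -0.94 in OCI-AML2 and -0.23 in MOLM14. PSIP1 differed in the same direction by -0.46 ± 0.096 (adjusted p = 4.84e-04). The response was higher in OCI-AML2 for RING1 (0.60 ± 0.20, adjusted p = 0.0157) and for KMT2A (0.50 ± 0.19, adjusted p = 0.0356). MEN1 (0.35 ± 0.083, adjusted p = 0.00140) and EED (0.24 ± 0.094, adjusted p = 0.0442) fell less in OCI-AML2. The calls of EED and KMT2A were lost in 16 and 14 of 31 alternatives. Summed with its sequence-sharing gene, KMT2A also lost its call, at 0.25 ± 0.18 (adjusted p = 0.287), while SUZ12 gained one, at -0.27 ± 0.094 (adjusted p = 0.0211). With equal library totals 3 genes differed, all lower in OCI-AML2: EZH2, PSIP1 and SUZ12. Of all genes, 43.4% then differed, 16.7% higher and 26.7% lower. For the 4 genes not called, the intervals were -0.17 to 0.40 for EZH1, -0.42 to 0.055 for SUZ12, -0.084 to 0.36 for BMI1 and 0.0071 to 0.56 for DOT1L.

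AZ2 left no gene of the 10 past the test. Against DMSO, 0 of 10 were called in OCI-AML2, where 0.111% of all genes were, and 0 of 10 in MOLM14, where 0% were; by limma 1 of the 10 had an unadjusted p under 0.05 in OCI-AML2 and 2 in MOLM14. KMT2A in OCI-AML2 was at 809, 1062, 701 and 794 with AZ2, a change of 0.40 ± 0.12 (adjusted p = 0.653), and its groups overlapped. In MOLM14 it was at 993, 799.7, 782 and 805 with AZ2, replicate 1 being the highest, and the change was -0.29 ± 0.13 (adjusted p = 0.815). RING1 was at 959.9, 1158, 743 and 1076 with AZ2 in MOLM14, 3 of them below all DMSO libraries, with a change of -0.52 ± 0.13 (adjusted p = 0.595) and an interval of -0.80 to -0.24. EZH1 in MOLM14 was at 403, 411, 389 and 414 with AZ2, above all DMSO libraries, and was the only 1 of the 10 without overlap, beside 4.43% of all genes; its change was 0.14 ± 0.10 (adjusted p = 0.930). For EZH2, whose values with AZ2 were 6085 to 6357 in OCI-AML2 and 6641 to 7342 in MOLM14, the intervals of the change were -0.13 to 0.11 in OCI-AML2 and -0.049 to 0.14 in MOLM14. For MEN1 they were -0.075 to 0.20 in OCI-AML2 and -0.049 to 0.18 in MOLM14. The AZ2 response did not pass a test of difference between the lines for any of the 10, beside 0.028% of all genes, and the widest difference was that of KMT2A (0.69 ± 0.19, adjusted p = 0.556).

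Set directly against AZ2, at doses not known to match, ARM165 gave 9 of 10 calls in OCI-AML2, beside 65.8% of all genes, and 7 of 10 in MOLM14, beside 70.1%. These comparisons share the ARM165 libraries with those against DMSO. In OCI-AML2 EZH2 was at -0.93 ± 0.058 (adjusted p = 1.03e-09) and MEN1 at -0.73 ± 0.065 (adjusted p = 7.36e-08), while SUZ12 was not called (interval -0.35 to 0.038). Summed with SUZ12P1 it was called against AZ2, at -0.27 ± 0.074 (adjusted p = 0.00408) in OCI-AML2 and -0.15 ± 0.053 (adjusted p = 0.0242) in MOLM14. In MOLM14 MEN1 was at -1.08 ± 0.053 (adjusted p = 5.71e-11) and EED at -0.67 ± 0.059 (adjusted p = 5.42e-08). RING1 and KMT2A, not called against DMSO in MOLM14, were higher with ARM165 than with AZ2 there, at 0.74 ± 0.13 (adjusted p = 1.29e-04) and 0.58 ± 0.13 (adjusted p = 8.72e-04). SUZ12, DOT1L and PSIP1 were not called in MOLM14, with intervals of -0.23 to 0.016, -0.15 to 0.20 and -0.22 to 0.0022. KMT2A in OCI-AML2 was at 0.38 ± 0.12 (adjusted p = 0.0117). Summed with AP001267.5, it was at 0.15 ± 0.12 (adjusted p = 0.308) in OCI-AML2, no longer called, and at 0.29 ± 0.11 (adjusted p = 0.0325) in MOLM14.

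The genes most like a member in pattern were sought among 11279 genes over the 24 libraries, centred within each line, as a description over libraries that share treatments. EZH2 was most like CENPU, a centromere protein gene, with a Pearson correlation of 0.986, then P2RY8 and TOR1A with 0.984 each. EZH1 was most like CACNA1A with 0.946, GORASP1 with 0.938 and BRD8 with 0.937. KMT2A had weaker likeness, with 0.855 for METTL15 and 0.851 each for ANKRD17 and ERC1. Between the members themselves, EZH1 and EZH2 correlated at -0.87 over the 24 libraries, at -0.97 over the 12 of OCI-AML2 and at -0.83 over the 12 of MOLM14.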

How the data were processed

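RNA was measured in 24 libraries of OCI-AML2 and MOLM14 after 24 h with ARM165, AZ2 or DMSO, 4 libraries per group. Per the labels' protocols, poly(A) RNA went into stranded libraries, and per the submitters' processing notes kallisto, version not stated, quantified the reads. The deposited tables, 1 per line, hold the authors' signal values, which are estimated counts scaled by a method that, like the build and annotation, is not given in the sources used here. No sample column was left out, and no libraries held identical values. In each library the most frequent low value above 0 was taken as 1 read. This gave 35444338 to 58967823 estimated reads per library. Symbols above 0 numbered 18889 to 19699. Only 15.1 to 15.9% of values above 0 came out as whole reads (within 0.01), so a count test was not run. Standard errors of log2 changes had medians of 0.12 in OCI-AML2, 0.099 in MOLM14 and 0.15 for differences between lines.

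Analysis used log2(value + 1) of genes reaching 10 in 4 or more libraries of the line. Each line's 12 libraries entered 1 limma 3.58.1 fit (R 4.3.3) with empirical Bayes moderation and a variance trend; adjusted p-values are Benjamini-Hochberg, across every gene tested. Differences between lines came from an interaction contrast in 24 libraries, for the 14287 genes retained in both. The fit was also run on simulated data in which few genes changed, unlike here, so that run does not test the scaling. An exact permutation test served the EZH1 to EZH2 ratio. The 10 genes and all gene lists were chosen with earlier results of these data known. From each related list and line, up to 2 called genes with the largest rises and up to 2 with the largest falls were named if a group mean reached 50 and, once named, are described in both lines; MEIS1 and MLLT3 were added after their values were seen. Shared sequence was counted as 31-base stretches of GENCODE 29 transcripts; promoter windows are from RefSeq. Other settings tried were the pseudocount, the filter, 3 scalings, the replicate number as a block, no variance trend, fits of only the groups compared, leaving out each library and, chosen after seeing the data, sums of a gene with one sharing its sequence. Plots used matplotlib 3.10.9 (Python 3.11.15).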

Additional observations from a re-analysis of the deposited data

Results flagged for a closer look

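Among 60 groups of 4 libraries, 5 held a library far from the other 3 by Dixon's test, and chance flags about 1 group in 20. EZH2 in OCI-AML2 with ARM165 was at 3623 in replicate 4, against 3154 to 3220.3 in the others. RING1 in OCI-AML2 with DMSO was at 2276 in replicate 2, against 2914 to 3005. KMT2A in MOLM14 with AZ2 was at 993 in replicate 1, against 782 to 805. DOT1L in OCI-AML2 with AZ2 was at 781 in replicate 2, against 982 to 1004. PSIP1 in MOLM14 with ARM165 was at 6597 in replicate 4, against 5591 to 5685.

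The change with ARM165 differed between the lines by the interaction test of limma for 6 of 10 genes, beside 42.4% of all genes. OCI-AML2 minus MOLM14, the difference was -0.71 for EZH2, -0.46 for PSIP1, 0.24 for EED, 0.60 for RING1, 0.50 for KMT2A and 0.35 for MEN1. EED and KMT2A lost this call in 16 and 14 of 31 alternatives. With equal library totals 3 genes differed, beside 43.4% of all genes.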

How the results depend on the processing

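Of 1820 values of single genes under the other settings tried, 1720 kept direction and call, 44 lost a call, 14 gained one and 42 changed sign, 39 of these without a call in either setting. Sums with a sequence-sharing gene are not among them: of 24 such values 18 kept direction and call, 2 of KMT2A lost a call, 3 of SUZ12 gained one and 1 of BMI1 changed sign. Setting library totals equal moved the median change of all genes with ARM165 in MOLM14 to 0.22. Under it 9 of the 10 genes were called there against DMSO (7 higher, 2 lower), beside 70.7% of all genes (43.6% higher, 27.1% lower), and the line difference with ARM165 was called for 3 (0 higher, 3 lower), beside 43.4% of all genes. Against AZ2 in MOLM14 44.7% of all genes were then higher and 26.4% lower. SUZ12 turned to 0.13 and PSIP1 to 0.093 against DMSO in MOLM14, and to 0.11 each against AZ2. It also turned PSIP1 with AZ2 in MOLM14 to -0.015, the line differences of EZH1 and BMI1 with ARM165 to -0.042 and -0.022, and that of DOT1L with AZ2 to 0.018. Quantile normalization turned EZH2 with AZ2 in OCI-AML2 to 0.0031 and the BMI1 line difference to -0.020. Median ratio scaling turned that EZH2 value to 0.0020 and DOT1L against AZ2 in MOLM14 to -0.0030. BMI1 summed with COMMD3-BMI1, chosen after seeing the data, was at -0.069 with AZ2 in MOLM14. The cause was not tested.

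Leaving out single libraries gave ranges across 0 of -0.0069 to 0.145 for DOT1L, -0.034 to 0.080 for EZH1, -0.050 to 0.014 for EZH2 and -0.12 to 0.077 for RING1 with AZ2 in OCI-AML2, -0.0044 to 0.032 for PSIP1 with AZ2 in MOLM14, -0.026 to 0.089 for DOT1L against AZ2 in MOLM14, and -0.081 to 0.070 for DOT1L, -0.032 to 0.051 for EED and -0.038 to 0.045 for MEN1 in the line difference with AZ2. The EZH1 to EZH2 difference ran from 0.69 to 0.91 with ARM165 in MOLM14 and from 1.57 to 1.72 in OCI-AML2. With AZ2 it ran from 0.055 to 0.11 in MOLM14 and from -0.021 to 0.13 in OCI-AML2. For ARM165 in MOLM14 the exact permutation p rose to 0.0571 without DMSO replicate 1, 2, 3 or 4. Without AZ2 replicate 3 the AZ2 difference in MOLM14 of 0.11 had an exact permutation p of 0.0286. With AZ2, all genes called numbered 0 to 3 in MOLM14 (3 without AZ2 replicate 3), 9 to 17 in OCI-AML2 (9 to 11 without DMSO replicate 1 or 4 or AZ2 replicate 1, 2 or 3) and 0 to 7 for the line difference (7 without MOLM14 DMSO replicate 3, 0 without 1 of 7 other libraries). Without AZ2 replicate 4, BMI1 against AZ2 in OCI-AML2 lost its call (0.22, adjusted p = 0.0552), and without OCI-AML2 DMSO replicate 4 the DOT1L line difference with ARM165 gained one (0.34, adjusted p = 0.0464).

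Residual correlations of 24 same-numbered pairs within a line were -0.037 to 0.056. Their median was 0.019 in MOLM14, against -0.0074 for pairs of different numbers, and 0.011 in OCI-AML2, against -0.0050. Any pairing by the replicate numbers was thus weak. With them as a replicate block, all genes called with AZ2 were 10 in OCI-AML2 and 2 for the line difference, and the ARM165 ratio differences of 1.62 in OCI-AML2 and 0.79 in MOLM14 had an exact p of 0.125, the smallest that 4 pairs allow. Without the variance trend these counts were 7 and 1. A fit of only the groups compared called 1 gene with AZ2 in MOLM14. Depth limits genes of low values most.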

Other observations

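ARM165 replicate 4 was the highest or lowest of its 4 libraries for 8 of the 10 genes in OCI-AML2 and for 9 in MOLM14, while each of the other ARM165 libraries was so for 1 to 5. For 8 genes it stood on the same side in both lines: highest for EZH2, SUZ12, EED, BMI1 and PSIP1, and lowest for EZH1, MEN1 and DOT1L. The labels give no batch that links replicate 4 of both lines. The share over all genes was not counted, and many of the 10 genes correlate with each other. These counts therefore do not set the 10 genes apart.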
